A study of Mus musculus with 20 samples.

Results

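Transcripts of 7 genes that mark red cells were followed through single-cell RNA-seq of the mouse spinal cord after contusion. The rule names the genes by symbol: the alpha globins Hba-a1 and Hba-a2, the beta globins Hbb-bs and Hbb-bt, and Alas2, Slc4a1 and Hemgn. Of these 7, 6 were among the 16003 genes of the count table, and Hbb-bt had 0 unique molecular identifiers (UMIs) in every library. All 6 had their highest level in cluster 10 of the 14 cell clusters, named erythroid in the study, which held 262 of 21016 cells.

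Hemoglobin joins alpha globin and beta globin chains, each of which carries a heme group that binds oxygen. Alas2 is the red cell enzyme that starts heme synthesis, Slc4a1 encodes band 3, the anion exchanger of the red cell membrane, and Hemgn encodes hemogen, a nuclear protein of erythroid precursors. Reticulocytes, the young red cells of the blood, have lost their nucleus but still hold globin mRNA.

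Female C57BL/6J mice aged 8 to 10 weeks received a T9 contusion or a sham laminectomy. The chow was vehicle or held PLX5622, at 1200 ppm by the labels, and was given from 2 weeks before surgery until the end point. PLX5622 inhibits the receptor of colony stimulating factor 1 and so depletes microglia. The 6 libraries were sham, 7 days post-injury (dpi) and 28 dpi under each diet, and each was 1 pool of 3 to 4 mice, so that differences between libraries have no replicate check and no p-value is given. The sham labels name both end points and no single day. Cords were not perfused, so that blood in vessels and blood in the lesion cannot be told apart.

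The count table held between 492 and 9846 cells and between 2606149 and 35694246 UMIs per library, with a median of 2268.5 to 5127 UMIs per cell. It left out 254 of the 21270 barcodes of the deposited matrices. Barcodes that occurred in more than 1 library numbered 44, and 1 of the 262 cells of cluster 10 carried such a barcode. All intervals given are 95% intervals and cover counting error only.

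The alpha globin genes lie on the plus strand of chromosome 11 (build GRCm38), Hba-a1 at chr11:32283511-32284465 and Hba-a2 at chr11:32296489-32297298. The beta globin genes lie on the minus strand of chromosome 7, Hbb-bt at chr7:103812524-103813996 and Hbb-bs at chr7:103826534-103828096. Alas2 is at chrX:150547375-150570638 on the plus strand, and Slc4a1 (chr11:102348824-102366203) and Hemgn (chr4:46393989-46413506) are on the minus strand. Within each globin pair the transcripts are nearly alike, which bears on how UMIs are split between them. The coding parts of Hba-a1 and Hba-a2 (426 bases each) differ at 1 base, C381T, counted from 1 at the first base of the start codon with the base of Hba-a1 first. All 77 bases that follow the coding part of Hba-a1 are also found in Hba-a2, where that part has 93 bases. The coding parts of Hbb-bs and Hbb-bt (441 bases each) differ at 1 base as well, C417T with the base of Hbb-bs first, but the parts that follow are only 73.5% identical. The stretches of 41 coding bases around the base that differs (in capitals) are shown because such a base, like the 16 further bases at the end of Hba-a2, can tell a read of 1 copy from the other.

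Hba-a1: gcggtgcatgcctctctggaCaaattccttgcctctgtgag
Hba-a2: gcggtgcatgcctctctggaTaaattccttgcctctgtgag
Hbb-bs: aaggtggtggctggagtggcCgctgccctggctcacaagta
Hbb-bt: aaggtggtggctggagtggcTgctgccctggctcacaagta

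The 150 bases before the transcription start, from RefSeq on GRCm38.p6, show how far the globin copies are alike there too, with Alas2 beside them because its level followed theirs. RefSeq starts were matched for 6 of the 7 genes, all but Slc4a1. The windows are chr11:32283522-32283671 for Hba-a1, chr11:32296342-32296491 for Hba-a2, chr7:103827929-103828078 for Hbb-bs, chr7:103813924-103814073 for Hbb-bt and chrX:150547267-150547416 for Alas2, each read on the strand of its gene. RefSeq starts differ from the outermost GENCODE starts given above, so that the windows of Hba-a1 and Hbb-bs lie inside the GENCODE genes and the other 3 overlap them in part. Capitals mark 4 short motifs on either strand: the CACCC motif, the motif known as the CCAAT box, the TATA-like motif ATATAA, and GATAA, which holds the core of sites of GATA factors.

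Hba-a1: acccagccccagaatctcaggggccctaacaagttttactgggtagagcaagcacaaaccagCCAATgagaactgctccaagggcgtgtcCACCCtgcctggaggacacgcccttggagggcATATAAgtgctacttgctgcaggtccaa
Hba-a2: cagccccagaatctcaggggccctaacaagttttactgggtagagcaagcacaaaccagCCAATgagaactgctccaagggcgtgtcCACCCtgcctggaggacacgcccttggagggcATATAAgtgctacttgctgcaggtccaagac
Hbb-bs: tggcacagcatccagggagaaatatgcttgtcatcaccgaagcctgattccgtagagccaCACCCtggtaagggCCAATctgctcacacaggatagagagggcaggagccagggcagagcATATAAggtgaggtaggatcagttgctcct
Hbb-bt: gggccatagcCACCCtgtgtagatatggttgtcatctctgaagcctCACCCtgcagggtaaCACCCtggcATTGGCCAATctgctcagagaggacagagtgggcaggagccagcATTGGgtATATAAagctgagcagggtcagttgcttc
Alas2: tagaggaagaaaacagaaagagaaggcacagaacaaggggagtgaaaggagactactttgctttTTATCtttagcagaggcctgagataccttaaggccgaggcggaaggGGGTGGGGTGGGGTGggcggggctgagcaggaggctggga

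The windows of Hba-a1 and Hba-a2 share an identical run of 147 bases, whereas the longest run shared by Hbb-bs and Hbb-bt is 14 bases. All 4 globin windows hold the CACCC motif, the CCAAT box and also the motif ATATAA. These 3 occur together in 0.424% of 32817 mouse windows of the same length. The motifs were chosen after the data were seen, so that this share is a description only. The nearly identical windows of Hba-a1 and Hba-a2 are not separate cases. ATATAA begins 28 to 31 bases before the start of each globin gene. Alone, the CACCC motif occurs in 37.4% of windows, the CCAAT box in 24.5% of them, the motif ATATAA in 5.35% of them and the motif GATAA in 13.4%. Alas2 has 3 copies of CACCC and 1 GATAA, all on the opposite strand, and Hemgn has 1 GATAA. These matches describe letters and are no evidence of binding.

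Hemoglobin mRNA was high in sham cords and low in injured cords under vehicle, with injured cords under PLX5622 between. Summed over the globin genes and all cells of the count table, the level was 2778 CPM (the UMIs of a gene divided by all UMIs of the cells, on the usual CPM scale, where a UMI stands for 1 captured transcript whatever its length) in sham vehicle, 53.5 in 7 dpi vehicle and 30.3 in 28 dpi vehicle. Under PLX5622 it was 2200 CPM in sham, 1112 at 7 dpi and 310.2 at 28 dpi. No libraries that are neighbours in the order of these levels had overlapping intervals. These intervals take the UMIs of 1 cell as independent and are too narrow. The order of the sham libraries depends on which barcodes are kept, as described further on.

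Hba-a2 was the most abundant member in all 6 libraries. Its level over all cells was 1852, 40.9 and 21.3 CPM in sham, 7 dpi and 28 dpi vehicle and 1572, 788.5 and 219.3 CPM under PLX5622. Hbb-bs followed the same order of libraries, with 896.4, 11.5 and 7.67 CPM under vehicle and 593.2, 286.2 and 70.3 CPM under PLX5622. Hba-a1 was far rarer, from 1.18 CPM in 7 dpi vehicle to 37.7 CPM in 7 dpi PLX5622. Hbb-bt had 0 UMIs in each library, which allows up to 0.0840 CPM in 7 dpi vehicle and 1.15 CPM in sham PLX5622 (3 counts of the total). The matrices also list Hbb-b1 and Hbb-b2, other names for beta globin genes, with 11 and 0 UMIs in all. Whether reads of Hbb-bt were counted under another name was not tested.

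Alas2, the enzyme that starts heme synthesis, stood at 474.6, 12.8 and 7.20 CPM in sham, 7 dpi and 28 dpi vehicle and at 288.9, 119.7 and 15.4 CPM under PLX5622. It lay below Hbb-bs except in 7 dpi vehicle, and in 7 and 28 dpi vehicle the intervals of both genes overlapped. Slc4a1 ranged from 1.40 CPM (50 UMIs) in 7 dpi vehicle to 37.0 CPM (266 UMIs) in sham vehicle. Hemgn had 12 to 60 UMIs in a library and did not share the order of the globins. It was highest in 28 dpi PLX5622 at 15.7 CPM (interval 11.9 to 20.3), where 56 of its 58 UMIs lay in 3 cells of cluster 10.

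**Figure D1:**
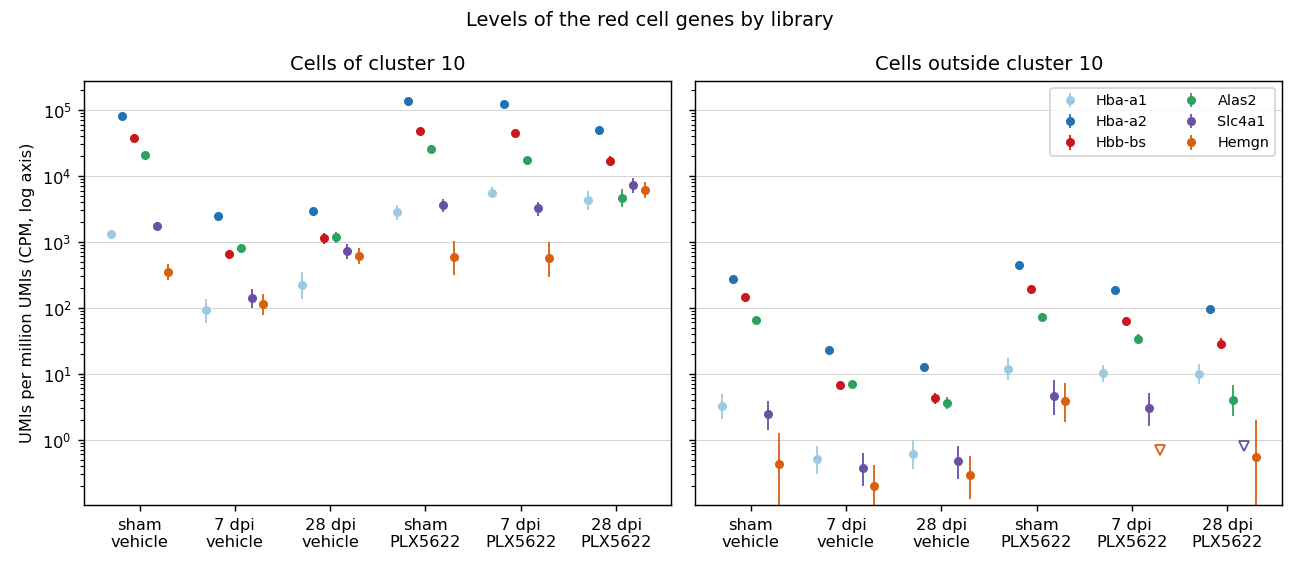
Level of each member, in CPM on a log axis, in cells of cluster 10 and in cells outside it for the 6 libraries. Points are sums over cells with exact Poisson 95% intervals, and open triangles stand at the limit of 3 counts where no UMI was found. In cluster 10, 7 and 28 dpi vehicle lie below the other 4 libraries for Hba-a1, Hba-a2, Hbb-bs, Alas2 and Slc4a1.

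Cluster 10 did not hold the same kind of cell in every library. It had 120, 58 and 35 cells in sham, 7 dpi and 28 dpi vehicle, and 19, 25 and 5 cells under PLX5622. These were 6.69% (interval 5.57 to 7.94), 0.780% (0.593 to 1.01) and 0.356% (0.248 to 0.494) of the vehicle cells, and 3.86% (2.34 to 5.97), 4.96% (3.24 to 7.24) and 0.532% (0.173 to 1.24) of the PLX5622 cells. Since the clusters were built from these genes among others, levels inside cluster 10 are a description.

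In sham vehicle, sham PLX5622 and 7 dpi PLX5622, red cell genes led cluster 10. Hba-a2 came first with 80201, 135199 and 122466 CPM and Hbb-bs second with 38115, 48272 and 45259 CPM. Next came Gpx1, a glutathione peroxidase, Bpgm, which makes the 2,3-bisphosphoglycerate that lowers the oxygen affinity of hemoglobin, and Alas2. A median cell held 120, 217 and 150 hemoglobin UMIs, or 16.0%, 21.8% and 21.4% of its UMIs. Such cells had few genes, with a median of 238, 225 and 222, against 1493, 1618 and 2138 in the cells outside cluster 10 of the same libraries.

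In 7 and 28 dpi vehicle the leading genes went against the erythroid label. There Apoe, a lipid carrier that macrophages make in large amounts, led cluster 10 with 83597 and 70478 CPM, and Hba-a2 stood at 2481 and 2913 CPM. A median cell held 13.5 and 10 hemoglobin UMIs, 0.323% and 0.433% of its UMIs, and had 1432 and 954 genes. Hemoglobin was still found in nearly all of them, in 56 of 58 cells at 7 dpi and 35 of 35 at 28 dpi, and Alas2 in 53 and 32, while the median cell outside the cluster held none. They are therefore called cells of cluster 10 and not red cells.

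Markers of macrophages were also found in cluster 10. All 6 microglia markers were detected in cluster 10 of each vehicle library, with a summed level of 4698, 4723 and 5779 CPM in sham, 7 dpi and 28 dpi, whereas 1, 3 and 0 of the 6 were detected under PLX5622, with 92.0, 280.2 and 0 CPM. At least 3 UMIs of these markers were held by 11.7%, 89.7% and 80.0% of the vehicle cells and by none of the PLX5622 cells. The 6 markers of monocyte-derived macrophages (MDMs) summed to 881.8, 33414 and 8373 CPM under vehicle and to 0, 3877 and 332.0 CPM under PLX5622. At least 3 UMIs of them were held by 5.00%, 94.8% and 68.6% of the vehicle cells, and by 52.0% of the 7 dpi PLX5622 cells but none of the other PLX5622 cells. In the cells outside cluster 10 microglia markers summed to 9247, 4381 and 5945 CPM under vehicle and to 2022, 2565 and 3180 CPM under PLX5622, and MDM markers to 3737, 26792 and 16018 CPM and to 1410, 31405 and 12447 CPM. Both lists in cluster 10 were thus near or above the level outside it in 7 dpi vehicle, whereas MDM markers in 7 dpi PLX5622 were far below it. Free RNA gives such UMIs in any droplet, and its part was not tested. Endothelial markers reached at most 184.1 CPM in cluster 10 of any library, and pericyte markers were at 0 except in sham vehicle. The part of such cells, or of droplets with more than 1 cell, in the hemoglobin of cluster 10 was not tested.

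The 5 cells of cluster 10 in 28 dpi PLX5622 differed again. Malat1, a nuclear long RNA, was first at 94954 CPM, Hba-a2 stood at 50243 CPM, and Hmgb2, a chromatin protein abundant in dividing cells, reached 10956 CPM. Slc4a1 was at 7193 CPM and Hemgn at 6197 CPM, against 115.4 to 613.3 CPM of Hemgn in cluster 10 of the other libraries. The 5 genes listed as markers of intermediate progenitors, among them Mki67 and Top2a of dividing cells, summed to 20474 CPM in these cells and to between 280.8 and 2312 CPM in cluster 10 elsewhere.

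Cells with at least 5 Hemgn UMIs were few in every library. There were 15 among the 262 cells of cluster 10, and 14 of these 15 held at least 3 UMIs of the progenitor markers, as did 11 of the other 247. By library the counts were 3 of 3 in 28 dpi PLX5622, 6 of 6 in 28 dpi vehicle, 2 of 2 in 7 dpi vehicle, 1 of 2 in sham vehicle and 1 of 1 in sham and in 7 dpi PLX5622. For Slc4a1 the counts were 17 of 33 cells with 5 or more UMIs and 8 of 229 with fewer. For Alas2 they were 13 of 189 and 12 of 73. Cells with 5 or more Hemgn UMIs had a median of 878 genes and the rest 273, and the part of depth in this was not tested. The minimums of UMIs were chosen with the levels of these genes known.

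Among libraries in which globin genes led cluster 10, summed hemoglobin differed by less than 2-fold, while Hba-a1 ran from 1298 to 5605 CPM. For sham PLX5622 over sham vehicle, the log2 ratio of hemoglobin was 0.64 (interval 0.59 to 0.69). Of the 5 members that had 100 UMIs or more when both libraries were added, 2 were at least 2-fold higher, Hba-a1 with a log2 ratio of 1.11 (0.67 to 1.54) and Slc4a1 with 1.05 (0.67 to 1.42), against 3.11% of the 225 genes compared. For 7 dpi PLX5622 over sham PLX5622 the log2 ratio of hemoglobin was -0.10 (-0.17 to -0.04), and none of the 5 members was at least 2-fold lower, against 3.12% of 64 genes. Alas2 stood at -0.56 (-0.75 to -0.37) and Hba-a1 at 1.00 (0.54 to 1.47). Both backgrounds come from genes of the clustered cells and are given with no reading.

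In 3 libraries a large part of the hemoglobin mRNA, and in sham PLX5622 most of it, lay in barcodes that are not in the count table. The table keeps barcodes with about 200 genes or more, whereas every matrix reached down to 500 to 502 UMIs. The methods state more cells before filtering than the matrices hold, so that barcodes missing from the matrices are not covered here. Left out were 121 of 1916 barcodes in sham vehicle, 102 of 594 in sham PLX5622, 29 of 533 in 7 dpi PLX5622, 2 of 9848 in 28 dpi vehicle and none in the other libraries. Those barcodes held 45.5%, 78.0% and 48.0% of the hemoglobin UMIs of sham vehicle, sham PLX5622 and 7 dpi PLX5622, and the 2 of 28 dpi vehicle held none. Over all libraries, 41524 of 75957 hemoglobin UMIs (54.7%) were in left-out barcodes, 26561 (35.0%) in cluster 10 and 7872 (10.4%) in the other cells.

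The 252 left-out barcodes of sham vehicle, sham PLX5622 and 7 dpi PLX5622 were all rich in globin mRNA. Their lowest hemoglobin share was 12.8%, 19.7% and 18.9% of a barcode's UMIs, the median 21.3%, 31.5% and 27.0%, and the highest 47.0%, 47.3% and 46.6%. They had a median of 166, 144 and 183 genes and of 570, 593.5 and 538 UMIs.

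With all barcodes of the matrices counted, the level of hemoglobin in CPM was higher in sham PLX5622 than in sham vehicle. The UMIs were fewer (26099 of 594 barcodes and 36650 of 1916). The level was then 5048, 53.5 and 30.3 CPM in sham, 7 dpi and 28 dpi vehicle and 9763, 2129 and 310.0 CPM under PLX5622. Barcodes with over 5% of their UMIs from hemoglobin numbered 237 in sham vehicle (12.4% of barcodes, interval 10.9 to 13.9), 123 in sham PLX5622 (20.7%, 17.5 to 24.2) and 54 in 7 dpi PLX5622 (10.1%, 7.70 to 13.0). There were 5 of 940 in 28 dpi PLX5622, 1 of 9848 in 28 dpi vehicle and 0 of 7439 in 7 dpi vehicle, which allows up to 0.0403%. Of these 420 barcodes, 252 were left out of the table, 151 were in cluster 10 and 17 in other clusters. Only 19 barcodes lay between 4% and 6%.

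**Figure D2:**
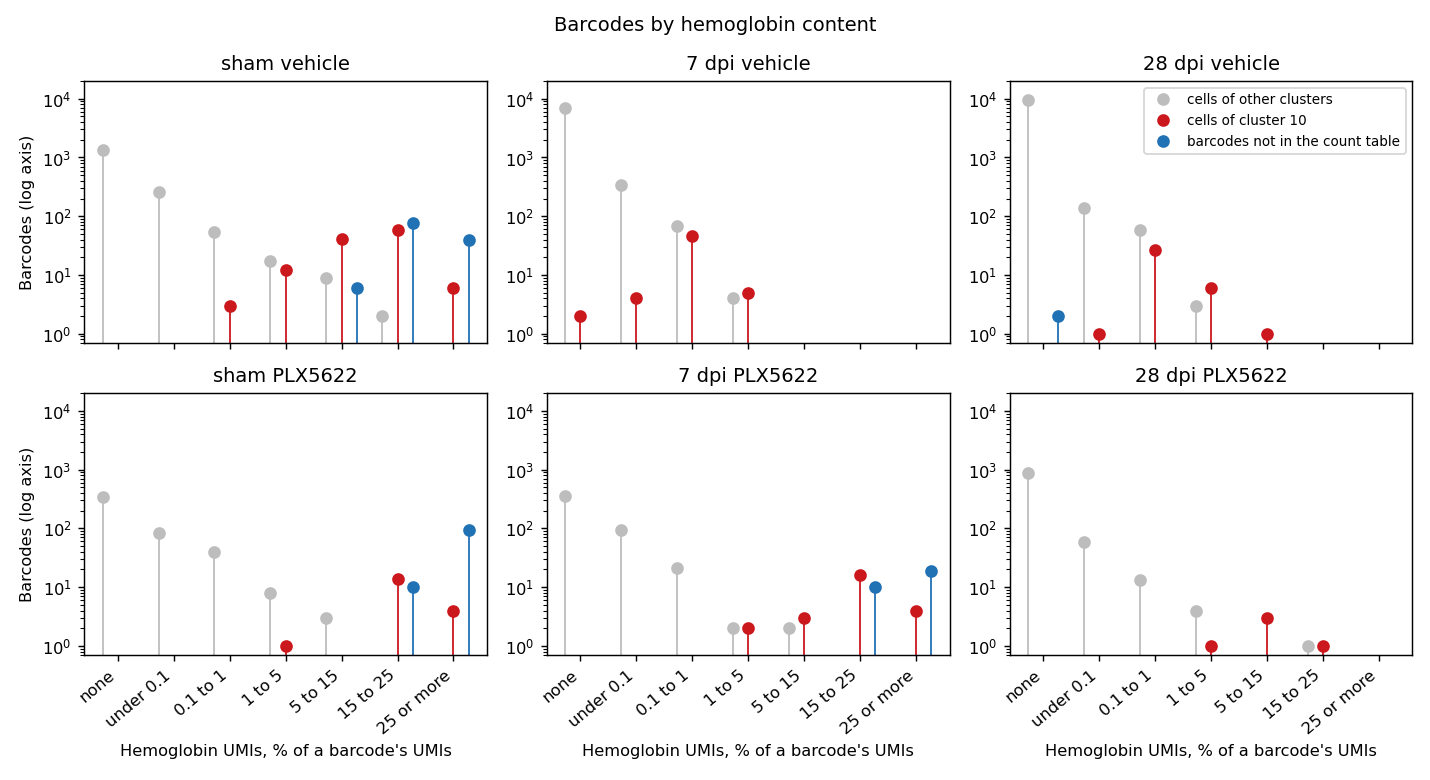
Number of barcodes (log axis) by the share of a barcode's UMIs that are hemoglobin, for each library, split into cells of other clusters, cells of cluster 10 and barcodes not in the count table. Left-out barcodes of sham vehicle, sham PLX5622 and 7 dpi PLX5622 all lie at 12.8% or above, while 53 of 58 and 28 of 35 cells of cluster 10 in 7 and 28 dpi vehicle lie under 1%.

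The left-out barcodes took no part in the clustering, and they carried other red cell genes as well. Summed over those 3 libraries, Alas2 reached 36942 CPM in them against 56.4 CPM in cells of clusters other than 10, a log2 ratio of 9.36 (interval 9.25 to 9.46), beside 9.35 (9.31 to 9.39) for hemoglobin. Slc4a1 reached 943.4 against 3.01 CPM (8.29, 7.79 to 8.83). Hemgn had only 10 UMIs in them, or 65.5 against 0.931 CPM.

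Of 42 other red cell genes listed, leaving aside other globins, 26 had at least 100 UMIs in this comparison. Of these 26, 19 were at least 2-fold higher in the left-out barcodes, against 2.52% of 10702 genes, 1 was at least 2-fold lower and 2 had 0 UMIs there. The lower one, Ppox, had 1 UMI there and a log2 ratio of -1.53 (-6.84 to 0.96). All 11 measured genes of cytosol and maturation were higher, among them Bpgm (log2 ratio 9.26) and Ube2l6 (8.52), a conjugating enzyme for the ubiquitin-like protein ISG15. Among membrane genes, Tspo2 stood at 8.89. Of 10 genes of heme synthesis and iron, 5 were higher. Fech, which inserts iron into protoporphyrin to form heme, and Slc25a37, the mitochondrial iron importer, stood at 7.61 and 6.50, and the heme synthesis enzymes Urod and Cpox at 1.08 (-0.25 to 2.14) and 1.13 (-0.096 to 2.12) with 7 and 8 UMIs, so that both intervals hold 0. Tfrc, the transferrin receptor, had 5 UMIs and a log2 ratio of -0.74 (-2.37 to 0.49).

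These enzymes were better seen in cluster 10. Cpox stood there at 388.0 CPM in sham vehicle, 736.3 in sham PLX5622, 1261 in 7 dpi PLX5622 and 1771 in the 5 cells of 28 dpi PLX5622. With 5 other globins added, 44 listed genes were in the count table, of which 34 had their highest level among the 14 clusters in cluster 10. Of the 44, 40 did when 7 and 28 dpi vehicle were left out. The exceptions then were Nfe2, highest in neutrophil cluster 9, and Mb, Cygb and Ngb, globins of other tissues. The share of all genes that were highest in cluster 10 is not given, so that both counts are a description only. Gata1 and Klf1, transcription factors of the erythroid program, had at most 7 and 14 UMIs in cluster 10 of a library.

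Outside cluster 10, hemoglobin as a share of all UMIs was lower in injured than in sham cords under both diets. Over these 20754 cells the level was 426.1 CPM (interval 411.0 to 441.6) in sham vehicle, 30.3 (28.5 to 32.2) in 7 dpi vehicle and 17.3 (15.8 to 18.9) in 28 dpi vehicle. Under PLX5622 the sham library had 652.4 CPM (621.6 to 684.3), the 7 dpi library 261.3 (246.3 to 277.0) and the 28 dpi library 135.6 (123.9 to 148.0). None of the 6 intervals overlapped. In such sums, fewer red cells, less mRNA per red cell and more mRNA of other cells cannot be told apart. Whether these UMIs came from red cells was not tested.

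Under vehicle, hemoglobin at 7 dpi was 14.1-fold lower than in sham, a log2 ratio of -3.81 (interval -3.92 to -3.71). At 28 dpi it was 24.6-fold lower, a log2 ratio of -4.62 (-4.76 to -4.48). The hemoglobin UMIs themselves were 3001 in sham, 1074 at 7 dpi and 479 at 28 dpi, over 1675, 7381 and 9811 cells. Of the members, 3 had at least 100 UMIs here, Hba-a2, Hbb-bs and Alas2. All 3 were at least 2-fold lower at 7 dpi, against 31.4% of all genes compared, and at 28 dpi, against 25.1%. The log2 ratios at 7 and 28 dpi were -3.58 and -4.47 for Hba-a2, -4.43 and -5.12 for Hbb-bs, and -3.22 and -4.15 for Alas2. The median over all genes was -0.65 and -0.58. Without the 17 cells with over 5% hemoglobin, of which 11 were from sham vehicle, the hemoglobin ratios were -3.12 and -3.93.

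Under PLX5622, hemoglobin stood nearer to its sham library, with a log2 ratio of -1.32 (-1.43 to -1.21) for the 7 dpi library and of -2.27 (-2.41 to -2.12) for the 28 dpi library. Hba-a2, Hbb-bs and Alas2 were all at least 2-fold lower at 7 dpi, against 15.8% of genes. At 28 dpi Hba-a2 and Hbb-bs were, against 19.4%. Alas2 was lower there too, but it passed the minimum of 100 UMIs only through the sham library (190 UMIs), so that its call is a description. For Alas2 the log2 ratio was -1.14 (-1.46 to -0.82) in the 7 dpi library. In the 28 dpi library, with 15 UMIs, it was -4.18 (-5.04 to -3.42). With cells thinned to 1000 UMIs the hemoglobin ratios were -0.35 and -3.02, and with clusters weighted alike -1.36 and -1.27.

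As a share of all UMIs, hemoglobin outside cluster 10 was higher in the PLX5622 library than in the vehicle library at each stage. The UMIs themselves were 1686 and 3001 in sham, 1132 and 1074 at 7 dpi and 500 and 479 at 28 dpi for PLX5622 and vehicle, over 473 and 1675, 479 and 7381, and 935 and 9811 cells. Sham cords gave a log2 ratio of PLX5622 over vehicle of 0.61 (0.53 to 0.70), cords at 7 dpi one of 3.11 (2.99 to 3.23), and cords at 28 dpi one of 2.97 (2.79 to 3.15). In sham none of the 3 members was at least 2-fold higher, against 14.4% of genes, and with clusters weighted alike the hemoglobin ratio was -0.035. At 7 dpi Hba-a2 (3.03), Hbb-bs (3.23) and Alas2 (2.28) were all at least 2-fold higher, against 20.4% of genes. At 28 dpi Hba-a2 (2.96) and Hbb-bs (2.77) were, against 17.8%, and Alas2 stood at 0.17 (-0.72 to 0.96). These ratios share libraries with those over sham.

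**Figure D3:**
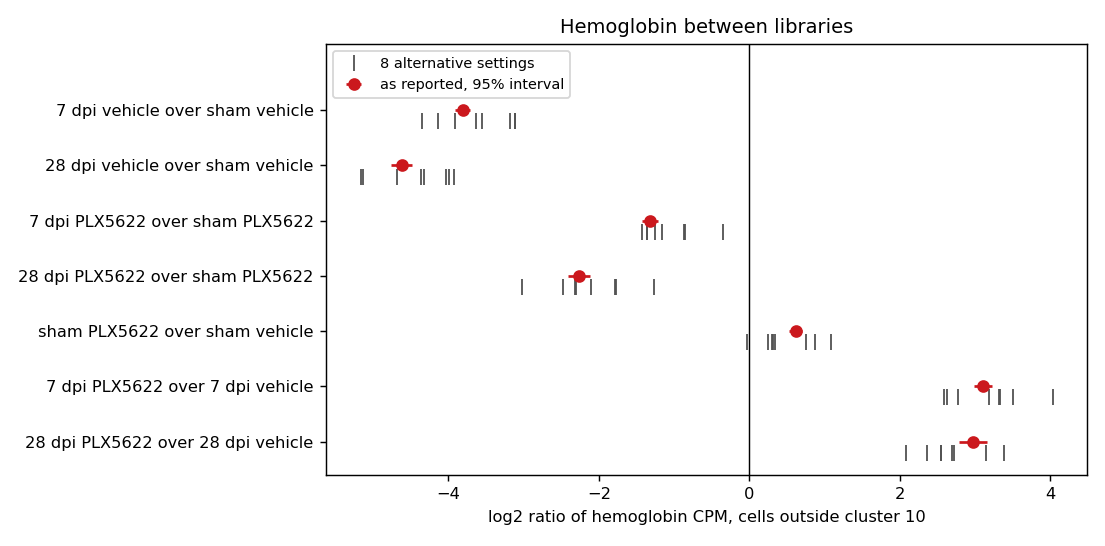
log2 ratio of hemoglobin CPM between pairs of libraries, over cells outside cluster 10. Red points are the reported values with exact conditional binomial 95% intervals, and ticks are the 8 alternative settings. All settings lie on 1 side of 0 for every pair but sham PLX5622 over sham vehicle, where clusters weighted alike gave -0.035.

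Most of this hemoglobin came from few cells in 4 of the libraries. Of the 20754 cells, 19475 had no hemoglobin UMI, 961 had 1, 202 had 2 to 9 and 116 had 10 or more. Those 116 cells (0.559%) held 79.1% of the hemoglobin UMIs, with 88.6% in sham vehicle, 90.5%, 87.6% and 85.8% in sham, 7 dpi and 28 dpi PLX5622, but 44.2% in 7 dpi vehicle and 30.1% in 28 dpi vehicle. UMIs of 1 cell are not independent, so that the intervals of CPM and of ratios, which take them as independent, are too narrow. Alas2 was found in 85.3% of the 116 cells, against 30.7% of cells with 2 to 9 hemoglobin UMIs, 2.50% of cells with 1 and 0.801% of cells with none. These shares pool unlike libraries. With 10 or more UMIs the share ran from 58.3% in 28 dpi vehicle to 97.2% in sham vehicle. With 2 to 9 UMIs it was 44.6% and 40.8% in 7 and 28 dpi vehicle, but 3.13% in sham vehicle. Under PLX5622 it was 23.1%, 10.5% and 0% in sham, 7 dpi and 28 dpi. The 17 cells with over 5% hemoglobin had a median of 713 UMIs and 471 genes, and 11 of them were in astrocyte cluster 4. The 11 from sham vehicle held 38.4% of its hemoglobin outside cluster 10. Whether such droplets held a red cell beside another cell was not tested.

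The share of cells with a hemoglobin UMI rests less on such cells. With each cell thinned to 1000 UMIs, 8.83% (interval 7.39 to 10.4) of 1393 cells had one in sham vehicle, 2.26% (1.92 to 2.64) of 6896 in 7 dpi vehicle and 1.04% (0.832 to 1.28) of 8168 in 28 dpi vehicle. Under PLX5622 11.4% (8.33 to 15.1) of 369 sham cells, 8.49% (6.02 to 11.6) of 424 cells of the 7 dpi library and 2.95% (1.90 to 4.36) of 814 cells of the 28 dpi library had one. The intervals of both sham libraries and 7 dpi PLX5622 overlapped, as did those of 7 dpi vehicle and 28 dpi PLX5622. Thinning left out 282, 485 and 1643 shallower cells under vehicle and 104, 55 and 121 under PLX5622. Unthinned, the shares were 20.1%, 5.62% and 2.02% under vehicle and 28.5%, 24.8% and 8.13% under PLX5622, and 67.4% to 88.2% of the positive cells had a single UMI.

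Endothelial cells, which line the vessels, held hemoglobin more often than macrophages in injured cords under vehicle. At 28 dpi the thinned share was 6.93% (interval 4.34 to 10.4) of 303 cells in endothelial cluster 2, against 1.01% (0.688 to 1.43) of 3068 cells in microglia cluster 0 and 0.522% (0.304 to 0.834) of 3258 cells in MDM cluster 1. At 7 dpi it was 6.02% (3.61 to 9.35) in endothelial cells, 6.85% (3.33 to 12.2) in B cells (cluster 7), 2.42% (1.79 to 3.195) in microglia and 1.16% (0.812 to 1.61) in MDMs. In sham vehicle the interval of endothelial cells (11.8%, 5.56 to 21.3) overlapped that of microglia (8.58%, 6.37 to 11.2) and that of MDMs (3.43%, 1.27 to 7.31). The thinned share in MDMs lay below that of microglia in each vehicle library. Unthinned it lay above that of microglia at 7 and 28 dpi, so that neither is taken as a background. Whether MDMs themselves held globin mRNA was not tested. Under PLX5622 the intervals overlapped. At 7 dpi the share was 8.45% (3.17 to 17.5) in endothelial cells, 11.1% (4.19 to 22.6) in microglia and 7.07% (2.89 to 14.03) in MDMs, and at 28 dpi 5.66% (1.18 to 15.7), 1.77% (0.215 to 6.25) and 2.67% (0.731 to 6.69). In sham PLX5622 it was 17.6% (9.47 to 28.8) of 68 endothelial cells and 24.0% (9.36 to 45.1) of 25 microglia. MDMs, with 9 cells, are not compared there. The median depth before thinning was 1342, 1686 and 3875 UMIs in endothelial cells, microglia and MDMs of 28 dpi vehicle. In 7 dpi vehicle it was 2409, 2902 and 5777 UMIs. Unthinned, the shares in these cells were 8.57%, 1.56% and 1.63% in 28 dpi vehicle. In 7 dpi vehicle they were 10.8%, 4.50% and 5.13%, so that the gap between endothelial cells and MDMs was smaller than after thinning.

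**Figure D4:**
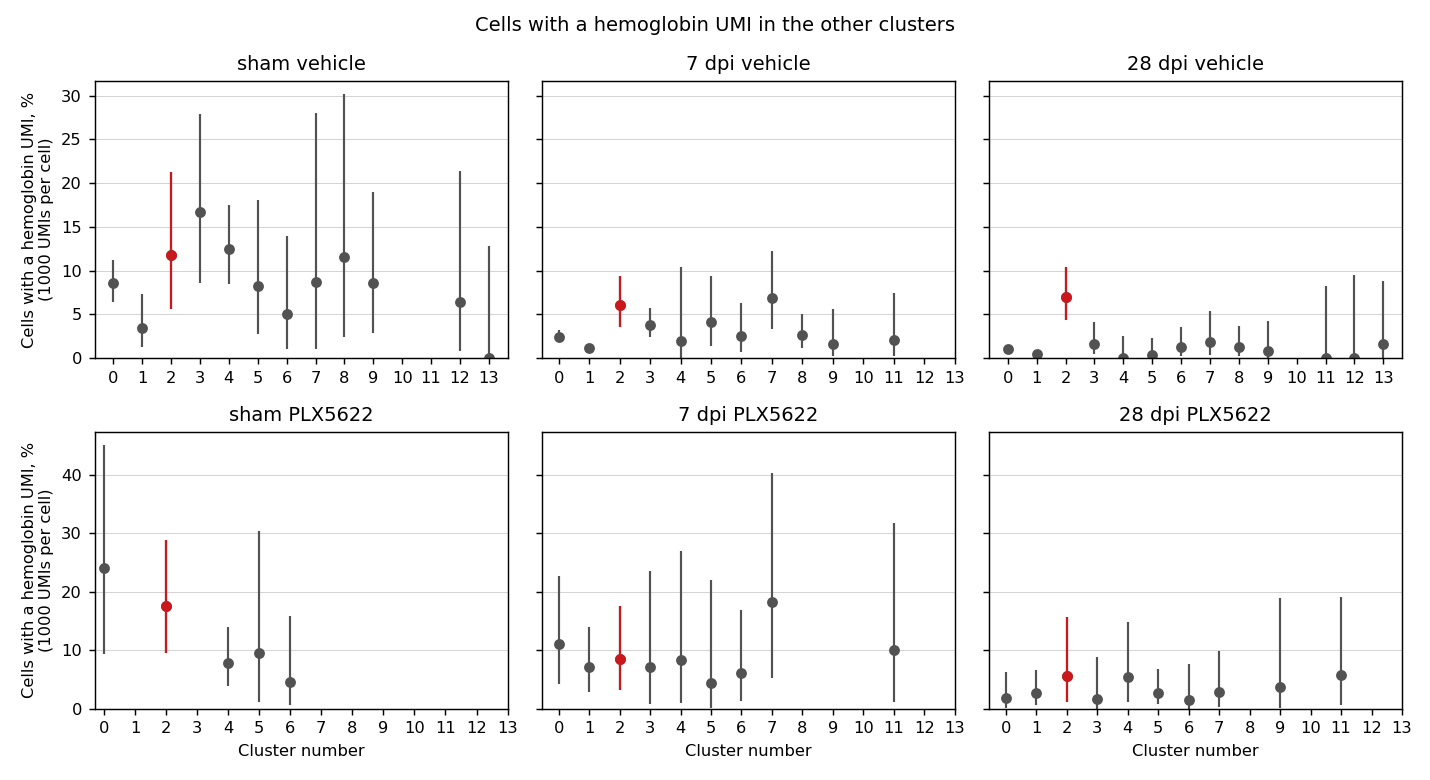
Share of cells with a hemoglobin UMI after thinning to 1000 UMIs per cell, by cluster number and library, for clusters with at least 20 such cells, without cluster 10. Bars are exact Clopper-Pearson 95% intervals, and cluster 2 (endothelial) is in red. In 28 dpi vehicle cluster 2 stands at 6.93% and no other cluster above 1.88%.

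Cells with 10 or more hemoglobin UMIs were also unevenly spread over clusters. They made up 3.16% of the 1075 endothelial cells, 2.26% of the 974 astrocytes, 1.99% of the 653 B cells and 1.31% of the 1067 monocytes, but 0.206% of the 6791 MDMs and 0.0428% of the 7018 microglia. These shares pool libraries of unlike make-up and are given as a description.

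The make-up of the hemoglobin UMIs differed more between libraries than between kinds of barcode within a library. Hba-a1 was 1.38% (interval 1.17 to 1.62) of the alpha globin UMIs in the left-out barcodes of sham vehicle, 1.59% (1.37 to 1.84) in cluster 10 and 1.17% (0.744 to 1.75) in the other cells. In sham PLX5622 these shares were 2.36%, 2.03% and 2.61%, and in 7 dpi PLX5622 4.57%, 4.38% and 5.15%. In cluster 10 and the other cells they were 3.59% and 2.16% in 7 dpi vehicle, 7.14% and 4.70% in 28 dpi vehicle, and 7.91% and 9.39% in 28 dpi PLX5622. Within each library the intervals overlapped, whereas those of 7 dpi PLX5622 lay above those of sham vehicle in every kind of barcode. Hba-a1 and Hba-a2 differ little in sequence, and the part of read assignment in this split was not tested.

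Hbb-bs made up 33.8%, 31.9% and 34.6% of the hemoglobin UMIs in the left-out barcodes, cluster 10 and the other cells of sham vehicle, 26.9%, 25.9% and 29.5% in sham PLX5622, and 27.9%, 26.1% and 24.5% in 7 dpi PLX5622. In cluster 10 and the other cells it was 20.1% and 22.5% in 7 dpi vehicle, 26.5% and 24.4% in 28 dpi vehicle, and 23.8% and 21.2% in 28 dpi PLX5622. Sham vehicle was thus highest in every kind of barcode. Within the sham libraries some intervals did not overlap, such as 33.1 to 34.5 in the left-out barcodes and 31.2 to 32.6 in cluster 10 of sham vehicle.

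Alas2 per 100 hemoglobin UMIs was 16.3, 17.4 and 15.1 in the left-out barcodes, cluster 10 and the other cells of sham vehicle, 12.3, 13.9 and 11.3 in sham PLX5622, and 9.11, 10.1 and 12.8 in 7 dpi PLX5622. In cluster 10 and the other cells it was 25.4 and 22.7 in 7 dpi vehicle, 27.6 and 20.9 in 28 dpi vehicle, and 6.49 and 3.00 in 28 dpi PLX5622, the lowest. Slc4a1 per 100 hemoglobin UMIs was lower in the left-out barcodes than in cluster 10, with 0.485 and 1.47 in sham vehicle and 0.172 and 1.95 in sham PLX5622.

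**Figure D5:**
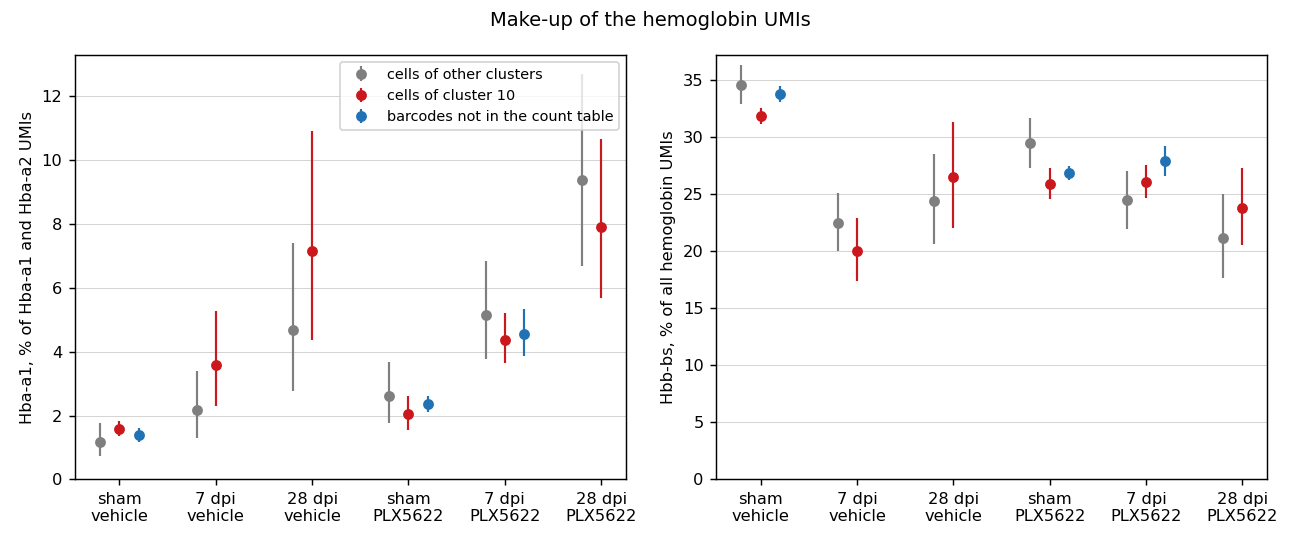
Share of Hba-a1 among alpha globin UMIs and of Hbb-bs among all hemoglobin UMIs by library, with exact Clopper-Pearson 95% intervals, for cells of other clusters, cells of cluster 10 and barcodes not in the count table. The intervals of Hba-a1 overlap within each library, while its share runs from 1.17% to 9.39% between libraries.

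Across the 66 profiles of a cluster in a library with at least 20 cells, the gene most like summed hemoglobin in log2 level was Alas2, with Pearson r = 0.94, and Fam220a (0.84), Bpgm (0.81) and Ube2l6 (0.81) were among the 5 most alike. Slc4a1 was in place 13 of 12852 genes with r = 0.76. Over the 62 profiles without cluster 10 Alas2 was again first (0.90), and Fam220a (0.69) and Bpgm (0.60) were among the first 4. Hemgn had r = 0.65 with cluster 10 and -0.07 without it. Profiles of a library share its depth and its free RNA, and r is given as a description.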

How the data were processed

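Reads of the 6 single-cell libraries (10x Chromium 3′ V3) were processed by the authors with Cell Ranger, and cells were filtered, integrated and clustered with Seurat; the submitters' notes name GRCm38 and mm10. The deposited values are UMI counts, as 1 matrix per library and 1 table of filtered cells with a cluster number per cell. A maximum of 3000 genes per cell stated in the methods was not applied in that table (highest 9044). Doublets were not removed. The 14 bulk samples were not analysed here.

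UMIs were summed per library and cluster and divided by all UMIs of those cells (CPM), with exact Poisson intervals. Ratios have exact conditional binomial intervals, and shares exact Clopper-Pearson intervals. In ratios a side at 0 was set to 3 counts. Genes with at least 100 UMIs on both sides together were compared. Likeness used log2(CPM + 10). The calculation of ratios was checked on simulated counts. Named genes are the members, lists of other red cell genes and cell type markers, and the 10 genes most like hemoglobin; a few of them are not reported here. Apoe and Malat1, which lead cluster 10 in some libraries, and the motifs were chosen after the data were seen. Members and lists were chosen with earlier results of these data known. Gene positions came from GENCODE M21. Alternatives were other scalings, thinning depths, cell filters and weightings. Sums, intervals and figures used pandas 2.3.3, scipy 1.17.1 and numpy 2.4.6 in Python 3.11.15. Scaling factors came from edgeR 4.0.16 and DESeq2 1.42.0 in R 4.3.3.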

Additional observations from a re-analysis of the deposited data

Results flagged for a closer look

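Hemoglobin was found in barcodes that the count table leaves out and that the comparisons between conditions did not use. It made up 23.1% of the UMIs of the left-out barcodes in sham vehicle, 31.7% in sham PLX5622 and 27.9% in 7 dpi PLX5622. Beta globin genes outside the count table also gave a few UMIs over the 6 matrices, 11 of Hbb-b1 and 6 of Hbb-y, an embryonic beta globin.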

How the results depend on the processing

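Hemoglobin log2 ratios outside cluster 10 are given in the order 7 and 28 dpi over sham under vehicle, 7 and 28 dpi over sham under PLX5622, and PLX5622 over vehicle in sham, at 7 dpi and at 28 dpi. With edgeR TMM factors they were -3.19, -4.03, -0.87, -1.78, 0.30, 2.62 and 2.55. With DESeq2 size factors they were -3.11, -3.99, -0.86, -1.78, 0.34, 2.59 and 2.55. With each cell weighted alike they were -4.35, -5.17, -1.16, -2.10, 0.32, 3.51 and 3.38. With cells thinned to 1000 UMIs they were -4.14, -5.14, -0.35, -3.02, 0.24, 4.03 and 2.36. With cells of at least 500 genes they were -3.55, -4.33, -1.25, -2.48, 0.87, 3.18 and 2.72. Without the deepest 5% of cells they were -3.92, -4.69, -1.36, -2.31, 0.76, 3.31 and 3.14. Without cells over 5% hemoglobin they were -3.12, -3.93, -1.43, -2.31, 1.08, 2.77 and 2.69. With clusters weighted alike they were -3.64, -4.37, -1.36, -1.27, -0.035, 3.34 and 2.08. Of these 56 values, 55 kept the direction reported and 1 did not. The cause was not tested. The share of cells with a hemoglobin UMI, for sham, 7 and 28 dpi vehicle and then sham, 7 and 28 dpi PLX5622, was 6.69%, 1.54%, 0.815%, 9.72%, 6.89% and 2.14% thinned to 500 UMIs, 20.1%, 5.62%, 2.02%, 28.5%, 24.8% and 8.13% not thinned, and 2.37%, 0.566%, 0.282%, 4.34%, 2.59% and 0.737% with a minimum of 2 UMIs. With all barcodes of the matrices, hemoglobin was 5048 CPM in sham vehicle, 9763 in sham PLX5622 and 2129 in 7 dpi PLX5622. Cluster 10 held 46.3%, 15.5% and 39.9% of it, in place of 85.0%, 70.6% and 76.6%. With genes of at least 20 UMIs, 5, 5, 3, 3, 1, 5 and 3 members were past 2-fold in the 7 ratios, in place of 3, 3, 3, 3, 0, 3 and 2. The share over all genes at the minimum of 20 UMIs is not given, so that these counts have no reading. The added alternative, 7 and 28 dpi vehicle left out of the count of red cell genes highest in cluster 10, was chosen after seeing the data. Libraries of 492 to 940 cells under PLX5622 limit what depth can show. No paired analysis was possible because each condition is 1 library and no test between conditions was made.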

Other observations

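Globins of other tissues were measured beside hemoglobin. Cygb (cytoglobin) was highest in leptomeningeal cluster 13, Mb (myoglobin) in ependymal cluster 6 and Ngb (neuroglobin) in cluster 11, of the oligodendrocyte lineage. None of the 3 had a UMI in cluster 10 of any library. The theta globins Hbq1a and Hbq1b were highest in cluster 10, with 126 and 245 UMIs over the 6 matrices.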
